A study of Homo sapiens with 6 samples.

Results

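The writer genes of N6-methyladenosine (m6A) were examined in AGS cells with and without FTO depletion. The 9 genes were taken by name as the methyltransferases and complex subunits known to deposit m6A: METTL3, METTL14, METTL16, WTAP, VIRMA, RBM15, RBM15B, ZC3H13 and CBLL1. Each matched 1 of the 58174 Ensembl gene IDs in the deposited expression table. AGS is an established human gastric adenocarcinoma line. Total RNA from 3 si-NC libraries, titled as a control siRNA, and 3 si-FTO libraries, titled as an siRNA against FTO, was sequenced. The titles name siRNA, whereas the genotype labels call the groups wild type and FTO-/-. No other treatment, dose or time is given in the labels.

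Most m6A in mRNA is laid down in the nucleus by a heterodimer of METTL3, which binds the methyl donor S-adenosylmethionine and transfers the methyl group, and METTL14, which helps hold the RNA. A second set of subunits, with WTAP, VIRMA, ZC3H13, CBLL1 and RBM15 or its paralog RBM15B, recruits and positions the heterodimer. METTL16 works apart from that complex and methylates U6 small nuclear RNA and hairpins in the MAT2A mRNA. FTO and ALKBH5 remove the methyl mark, and YTH and IGF2BP proteins bind it.

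The deposited values are in TPM, a unit of transcript abundance scaled for transcript length and library size. For levels, the table gives 1 mean per group, the authors' mean of the 3 libraries. It also holds columns of the authors' own comparison, which were not used. The means show neither the spread between libraries nor the depth, and whether any difference exceeds the replicate error was not tested here. Differences are given as log2((si-FTO mean TPM + 1)/(si-NC mean TPM + 1)), called the log2 ratio, which understates the difference for genes of low level. A gene counted as called when its log2 ratio was at least 1 in size. The background is the 20493 genes that reached 0.5 TPM in either group mean. All 9 writers were above this filter in both groups.

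FTO itself had a mean of 33.1 TPM in si-NC compared with 7.27 TPM in si-FTO. Its si-FTO mean was 21.9% of the si-NC mean, for a log2 ratio of -2.05, in the direction of the labels.

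Among the markers of the labelled cell type above the filter, all but CLDN18 differed more between the groups than any writer did. CLDN18 had a log2 ratio of 0.11. KRT8, an epithelial keratin, had a mean of 10.8 TPM in si-NC compared with 3139 TPM in si-FTO. KRT7 was listed at 0 in si-NC and had 253 TPM in si-FTO. GATA4, a transcription factor of the gastric lineage, had 36.96 TPM in si-NC and was listed at 0 in si-FTO. The epithelial adhesion genes EPCAM and CDH1 were low in both groups, with 1.22 and 0.113 TPM for EPCAM and 3.67 and 0.685 TPM for CDH1 in si-NC and si-FTO. Of 22 gastric and epithelial markers, 14 were above the filter, 8 of them higher and 4 lower by a log2 ratio of at least 1, beside 11.4% and 17% of all genes. Their summed level was 167 TPM in si-NC, where KRT18 was the most abundant, and 5398 TPM in si-FTO, where KRT8 was. Apart from KRT7 and GATA4, markers listed at 0 in a group were at or near the floor in the other group too. TFF1 and TFF3 were listed at 0 in both groups. KRT19 was listed at 0 in si-NC and had 0.130 TPM in si-FTO. FOXA2, CDH17 and ESRP1 were listed at 0 in si-FTO and had 0.0713, 0.00634 and 0.0830 TPM in si-NC.

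Markers of other cell types also differed. The 7 mesenchymal markers summed to 481 TPM in si-NC compared with 803 TPM in si-FTO, with VIM the most abundant in both, and 2 of the 5 above the filter were higher and 2 lower past the fold, beside the same shares of all genes. COL1A2 was listed at 0 in si-FTO and had only 0.00982 TPM in si-NC. The endothelial cadherin CDH5 had 0.00827 TPM in si-NC compared with 40.9 TPM in si-FTO, while VWF was below 1 TPM in both groups and PECAM1 was not matched to an ID. Of the blood cell markers, PTPRC was listed at 0 in both groups. CD3E was listed at 0 in si-FTO and had only 0.0129 TPM in si-NC. Across the table, 177 genes of at least 10 TPM in si-NC had a listed value of 0 in si-FTO, and 65 genes had the reverse. Whether both groups held the same kind of cells was not tested, so every ratio below compares the groups as labelled and cannot be assigned to FTO depletion alone. The part of these marker differences in the writer ratios was not tested. In bulk RNA, fewer cells of a type and less RNA per cell cannot be told apart.

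All 9 writer genes had a lower mean in si-FTO than in si-NC, and none was lower or higher by a log2 ratio of 1. Of all genes tested, 17% were lower and 11.4% higher by that amount. The log2 ratios ran from -0.77 for METTL14 to -0.32 for RBM15B, with a median of -0.54. The median over all genes was -0.20, and 59.9% of them had a log2 ratio below 0, compared with 9 of the 9 writers. Among the 12967 genes that reached 5 TPM in either mean, 59% were below 0.

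At a smaller fold, for a log2 ratio of 0.5, 6 of the 9 writers were lower and none was higher. The corresponding shares of all genes were 34.9% lower and 21.1% higher, and among genes of at least 5 TPM 34% were lower. The 6 were METTL14, VIRMA, WTAP, RBM15, METTL16 and CBLL1. The count was 3 with median-ratio scaling, beside 29.1% of all genes, and 4 with quantile normalization, beside 28.8%.

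**Figure D1:**
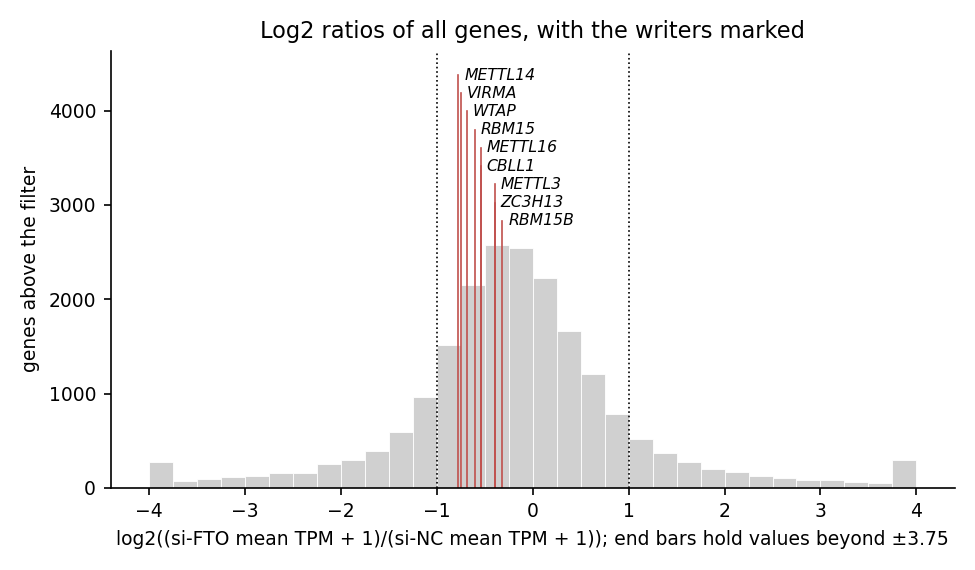
Histogram of the log2 ratios of the 20493 genes above the filter, as genes per bar of the log2 ratio between si-FTO and si-NC mean TPM. Red lines mark the 9 writers, all between -0.77 and -0.32, dotted lines mark a log2 ratio of 1 in either direction, and the end bars gather larger values.

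The writers lay inside the bulk of the distribution. The middle 50% of all genes had log2 ratios between -0.74 and 0.38, and METTL14 and VIRMA lay just outside it. For METTL14, 23.5% of all genes had a lower ratio, and for RBM15B 44.03% did. The interval from the lowest to the highest writer held 20.5% of all genes. The SD of the ratio across the 9 writers was 0.16, compared with 1.36 across all genes. These SDs describe genes, not replicates.

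METTL3, the catalytic subunit, was the most abundant writer in both groups. Its mean was 107 TPM in si-NC compared with 81.4 TPM in si-FTO, for a log2 ratio of -0.40, or -0.22 with median-ratio scaling. METTL14, its partner, was the least abundant writer in both groups, with 11.2 TPM in si-NC compared with 6.13 TPM in si-FTO. Its log2 ratio of -0.77 was the lowest of the 9 in the deposited scale, and its si-FTO mean was 54.7% of the si-NC mean. The ratio of METTL3 to METTL14 levels was 9.59 with si-NC and 13.3 with si-FTO. The proteins bind each other in equal numbers in the complex, and a ratio of mRNA levels does not measure their protein ratio.

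The 3 methyltransferase genes carry a short motif of the type that lines the methyl donor site, and the stretches that encode it show how the members differ there. METTL3 carries DPPW at codons 395 to 398 of 580, METTL14 carries EPPL at codons 192 to 195 of 456 and METTL16 carries NPPF at codons 184 to 187 of 562. The first is the catalytic motif of METTL3, whereas METTL14 is known to lack catalytic activity of its own. Each stretch is 60 bases of coding sequence from 1 exon of the GENCODE canonical transcript, printed in the direction of the gene, with the 12 bases of the motif in capitals. The METTL3 stretch is in exon 6 of 11 at chr14:21968723-21968782 on the minus strand, the METTL14 stretch in exon 7 of 11 at chr4:119618383-119618442 on the plus strand, and the METTL16 stretch in exon 5 of 10 at chr17:2371055-2371114 on the minus strand, all in GRCh37.
METTL3: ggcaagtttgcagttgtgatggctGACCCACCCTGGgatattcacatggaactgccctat
METTL14: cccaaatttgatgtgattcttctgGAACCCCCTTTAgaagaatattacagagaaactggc
METTL16: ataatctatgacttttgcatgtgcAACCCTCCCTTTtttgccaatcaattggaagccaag

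WTAP, the subunit that holds the heterodimer in nuclear speckles, was nearly as abundant as METTL3 in si-NC. Its mean was 105 TPM in si-NC compared with 65.2 TPM in si-FTO, for a log2 ratio of -0.68. The WTAP level was 0.979 times that of METTL3 in si-NC and 0.800 times in si-FTO. VIRMA, the large scaffold that is known to guide where transcripts are methylated, had 35.8 TPM in si-NC compared with 20.9 TPM in si-FTO. Its log2 ratio was -0.75.

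ZC3H13, a zinc finger protein that keeps the complex in the nucleus, had 15.0 TPM in si-NC compared with 11.2 TPM in si-FTO. Its log2 ratio was -0.40 in the deposited scale, -0.23 with median-ratio scaling and -0.29 with quantile normalization. CBLL1, also called HAKAI, is a ubiquitin ligase found in the complex. It had 11.9 TPM in si-NC compared with 7.83 TPM in si-FTO, for a log2 ratio of -0.54.

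RBM15 and RBM15B are paralogs that bind RNA and bring the complex to its sites. RBM15 had 29.8 TPM in si-NC compared with 19.3 TPM in si-FTO, for a log2 ratio of -0.60. RBM15B had 52.0 TPM in si-NC compared with 41.6 TPM in si-FTO, and its log2 ratio of -0.32 was the highest of the 9 in the deposited scale, although with quantile normalization ZC3H13 reached -0.29 as well. With median-ratio scaling the RBM15B ratio was -0.14. The level of RBM15B was 1.75 times that of RBM15 in si-NC and 2.16 times in si-FTO. SPEN, the third member of their family and a transcriptional corepressor, had 135 TPM in si-NC compared with 38.4 TPM in si-FTO. Its log2 ratio of -1.78 was past the fold, unlike those of both paralogs.

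METTL16, the writer outside the complex, had 20.5 TPM in si-NC compared with 13.8 TPM in si-FTO, for a log2 ratio of -0.54. Its level was 19.1% of that of METTL3 in si-NC and 16.9% in si-FTO. Of 4 genes that act on U6 RNA beside it, 1 was lower past the fold and none was higher, beside 17% and 11.4% of all genes. This was USB1, which trims the end of U6, with 63.0 TPM in si-NC compared with 25.8 TPM in si-FTO and a log2 ratio of -1.26.

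MAT2A encodes the enzyme that makes S-adenosylmethionine in most tissues, and METTL16 is known to bind hairpins in its mRNA. It was singled out after its values were seen, since it lay outside the naming rule. MAT2A had 303 TPM in si-NC compared with 478 TPM in si-FTO, for a log2 ratio of 0.66, so its level differed in the opposite direction to METTL16. The methylated nonamer TACAGAGAA, or its variant TACAGAAAA, was found 6 times on the sense strand of the 1512 bases of the MAT2A 3′ untranslated region. Of 7783 canonical transcripts with a 3′ region at least as long, read over the same length, 4.19% held at least 1 match and 1, MAT2A itself, held as many. The sites are shown with the nonamer in capitals and 10 bases on either side, since they are the best described substrate of METTL16 in mRNA. They lie on chr2 plus strand in GRCh37, from 85770925 for the first base of the first to 85772263 for the last base of the sixth.
Site 1: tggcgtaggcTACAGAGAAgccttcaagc
Site 2: tgtgatgtcaTACAGAGAAgtcacagggc
Site 3: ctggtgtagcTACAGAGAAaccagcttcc
Site 4: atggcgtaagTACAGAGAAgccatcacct
Site 5: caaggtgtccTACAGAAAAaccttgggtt
Site 6: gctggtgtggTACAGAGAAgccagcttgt
Site 5 is the one with the variant. A match is a description of letters, and methylation was not measured here.

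The order of the 9 levels was the same in both groups. From the highest it ran METTL3, WTAP, RBM15B, VIRMA, RBM15, METTL16, ZC3H13, CBLL1 and METTL14, and all 9 places were shared. Which neighbours in this order differ beyond their spread cannot be told from 1 mean each. The closest were METTL3 and WTAP, and CBLL1 and METTL14, in si-NC. The most abundant writer was 9.59 times the least abundant in si-NC and 13.3 times in si-FTO.

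The summed writer level was 389 TPM in si-NC compared with 267 TPM in si-FTO, so the si-FTO sum was 68.7% of the si-NC sum. METTL3 and WTAP made up most of it. METTL3 accounted for 27.6% of the si-NC sum and 30.5% of the si-FTO sum, and WTAP for 27.1% and 24.4%. RBM15B accounted for 13.4% and 15.6%, and METTL14 for 2.88% and 2.30%. The METTL3 level exceeded that of 93.1% of all genes tested in si-NC and 90.2% in si-FTO. The METTL14 level exceeded that of 55.0% and 47.7%.

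**Figure D2:**
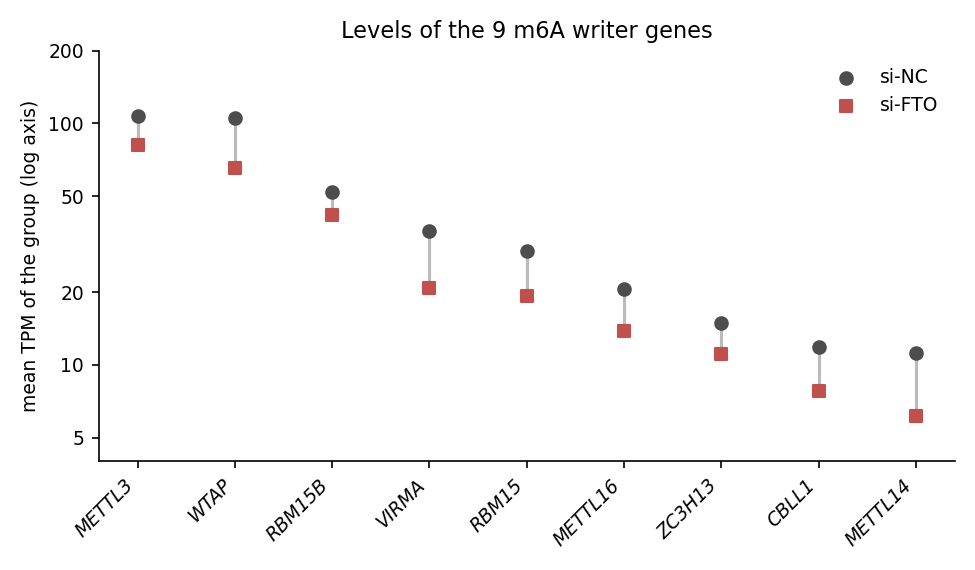
Mean TPM of each writer gene in si-NC (grey circles) and si-FTO (red squares) on a log axis, 1 mean of 3 libraries per point, so no error bar can be drawn. The genes stand in the same order in both groups, from METTL3 at 107 and 81.4 TPM to METTL14 at 11.2 and 6.13 TPM.

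The direction of the writer ratios was checked under other scalings of the 2 means. Median-ratio scaling moved the median of all genes from -0.20 to -0.05, and quantile normalization moved it to -0.03. All 9 writers stayed below 0 under both, with medians of -0.38 and -0.44, beside 52.6% and 51.4% of all genes below 0. Relative to the median of all genes, the writers' median was -0.34 in the deposited scale, -0.33 with median-ratio scaling and -0.41 with quantile normalization. The median of all genes thus shared part of the writers' difference in the deposited scale. With quantile normalization the lowest writer ratio was -0.70 and was not that of METTL14, which was -0.59.

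**Figure D3:**
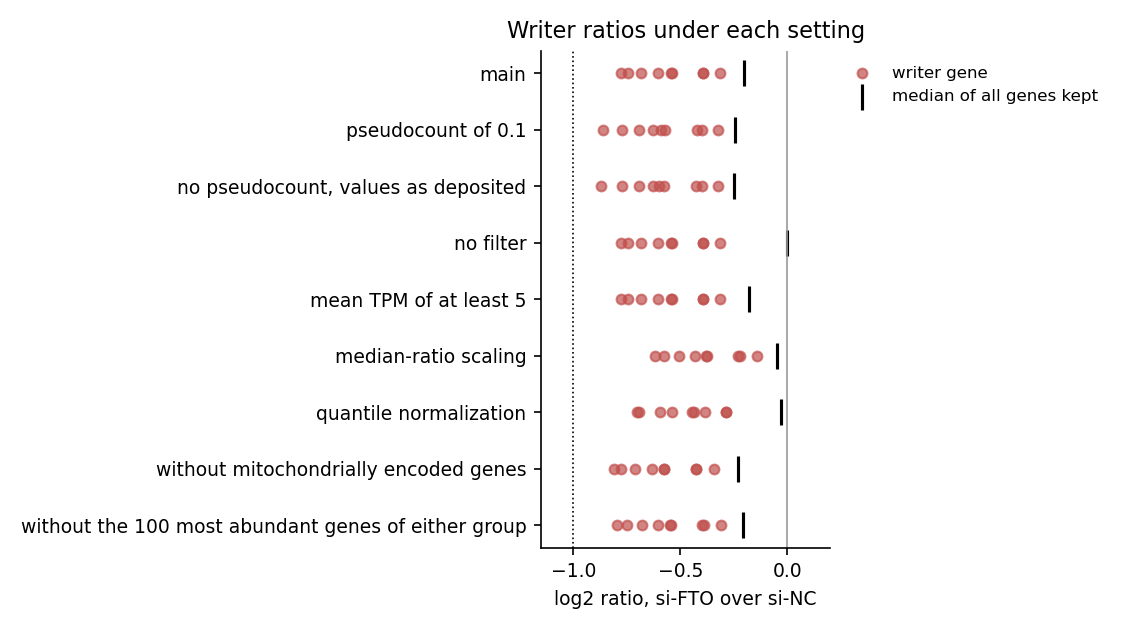
Log2 ratios of the 9 writers (red points) and the median of all genes kept (black bars) under the main setting and each of 8 alternatives. All writers lie below 0 and below the median of all genes in every row, and none reaches the dotted line at -1. The pseudocount and filter rows cannot change whether a writer lies below 0.

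The 9 genes lie on 9 different chromosomes. In GRCh37 the catalytic pair is at chr14:21966277-21979484 for METTL3, on the minus strand, and chr4:119606547-119636588 for METTL14, on the plus strand. METTL16 is at chr17:2308856-2415185 and ZC3H13 at chr13:46528600-46626894, both on the minus strand. WTAP is at chr6:160146617-160177351, CBLL1 at chr7:107383518-107402112, RBM15 at chr1:110881128-110889303 and RBM15B at chr3:51428716-51435339, all on the plus strand. VIRMA is at chr8:95499917-95565757 on the minus strand.

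The 10 genes above the filter on each side of a writer were compared with it. All 9 writers had a log2 ratio below the median of their 20 neighbours, also with quantile normalization. The share of all genes that lie below their own neighbours' median was not computed. All 9 writers also lay below the median of all genes, -0.20, so the gaps are not independent of that result. Neighbours needed only 0.5 TPM in either mean, and the log2 ratio understates differences at low level. Median-ratio scaling moves a writer and its neighbours nearly alike, so it is no test of these gaps. The gap was smallest for ZC3H13 at -0.02, where the neighbours' median was -0.37, and for METTL3 at -0.06, where it was -0.33. It was widest for CBLL1 at -0.63, whose neighbours had a median of 0.09, and was -0.53 for both VIRMA and METTL16. The genes around METTL14 had a median of -0.32 and those around WTAP a median of -0.29. From 9 of 20 neighbours, around CBLL1, to 15 of 20, around METTL14 and ZC3H13, had a log2 ratio below 0, beside 59.9% of all genes. Both ratios of a gap share the same 2 group means, so a gap carries no replicate error either.

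**Figure D4:**
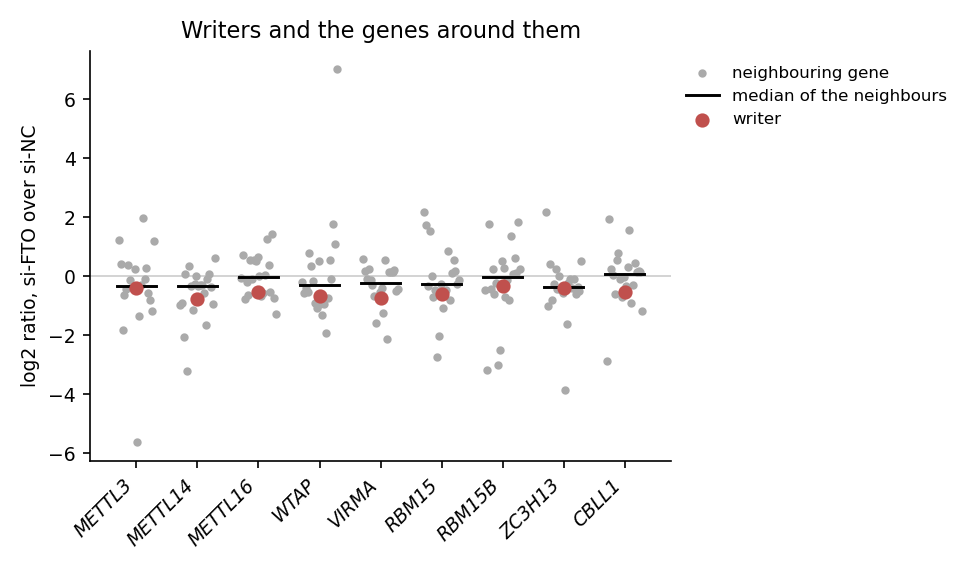
Log2 ratio of each writer (red), of the 20 nearest genes above the filter on its chromosome (grey, in chromosomal order) and of their median (black bar). Each writer lies below its neighbours' median, by 0.02 for ZC3H13 at the least.

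Several writers overlap another annotated gene. The libraries came from a stranded kit, which lets reads of opposite strands be separated if the quantification uses strand. Whether the authors' quantification did so is not given in the sources used here, so values of overlapping genes are uncertain to that extent. The METTL3 gene overlaps TOX4 on the opposite strand by 1043 bases, and TOX4 had 45.1 TPM in si-NC compared with 53.4 TPM in si-FTO. RBM15B overlaps DCAF1 on the opposite strand by 2042 bases, and DCAF1 had 38.5 TPM in si-NC compared with 46.7 TPM in si-FTO. Both overlapping genes thus had a higher mean in si-FTO, with log2 ratios of 0.24 and 0.27, where METTL3 and RBM15B had a lower one. The TOX4 and DCAF1 ratios were 0.41 and 0.44 with median-ratio scaling, and 0.27 and 0.30 with quantile normalization. METTL3 and RBM15B stayed below 0 under both. WTAP lies within the span annotated for SOD2 on the opposite strand, whose ID was not matched and which is not analysed here.

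CBLL1-AS1 overlaps CBLL1 on the opposite strand by 1509 bases. CBLL1-AS1 had 4.88 TPM in si-NC compared with 4.83 TPM in si-FTO, beside 11.9 and 7.83 TPM for CBLL1, so the CBLL1 values are uncertain where reads could be shared. The other overlapping genes were below 1 TPM in both groups. RBM15-AS1 had 0.706 and 0.409 TPM. CPB2-AS1, which overlaps ZC3H13, had 0.126 TPM in si-NC and was listed at 0 in si-FTO. An unnamed antisense transcript of VIRMA had 0.0569 TPM in si-NC and was listed at 0 in si-FTO, and 2 unnamed transcripts within METTL16 were at or below 0.00206 TPM. The processed pseudogene WTAPP1 had 1.09 TPM in si-NC compared with 0.259 TPM in si-FTO, and CBLL1P1 was listed at 0 in both groups. Reads shared between WTAP and WTAPP1 make both uncertain, although the WTAP level was far higher.

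The canonical writer transcripts had a median length of 5740 bases, compared with 3265 bases over 14134 protein-coding genes above the filter. They ranged from 1980 bases for METTL3 to 8024 bases for ZC3H13. Their median GC content was 44.2%, compared with 49.2% over those genes. GGACU is the commonest form of the sequence that METTL3 and METTL14 methylate. It occurred a median of 1.46 times per kb of writer coding sequence, compared with 0.979 times over all those genes. METTL3 had 2.30 per kb and METTL16 had 0.593 per kb. All 9 members had a value for each feature.

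Because the members differed in the same direction, their promoters were searched for 6 short motifs on both strands. RefSeq promoters, from 250 bases before to 50 bases after the start in GRCh38.p14, matched 8 of the 9 members, with a pair of windows for WTAP. VIRMA was not among them. CCGGAA, the core bound by ETS factors, was found in METTL3, METTL14, METTL16, ZC3H13 and CBLL1, 5 of 8 genes, and in 17.2% of 35116 promoters. CCAAT, the CCAAT box, was found in 7 of 8 genes and 34.6% of promoters, with RBM15B the exception. GGGCGG, the GC box, was found in 4 of 8 genes and 45% of promoters, and CACGTG, the E-box, in 2 and 7.26%. ATGGCGG, bound by YY1, was found in 3 and 5.55%, and TATAAA in 1 and 11.5%. The letters GGCGG are shared by GGGCGG and ATGGCGG. A gene with a pair of windows has more sequence in which to match, and a match is no evidence of binding. The 35116 promoters were counted per promoter, not per gene, and were not limited to genes above the filter. Their shares are therefore not matched to the members, and enrichment was not tested.

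The promoters of the catalytic pair are printed because each held 3 matches to CCGGAA, on either strand, shown in capitals. The METTL14 window is chr4:118685142-118685441 on the plus strand and the METTL3 window is chr14:21511291-21511590 on the minus strand, both in GRCh38.p14 and not on the GRCh37 positions above. Both are printed in the direction of transcription.
METTL14: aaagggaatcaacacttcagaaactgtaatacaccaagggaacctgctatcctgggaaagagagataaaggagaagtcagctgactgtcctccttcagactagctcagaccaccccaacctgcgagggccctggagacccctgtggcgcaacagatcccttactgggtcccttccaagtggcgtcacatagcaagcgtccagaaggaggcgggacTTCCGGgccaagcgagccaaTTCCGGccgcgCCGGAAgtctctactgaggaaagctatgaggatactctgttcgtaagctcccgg
METTL3: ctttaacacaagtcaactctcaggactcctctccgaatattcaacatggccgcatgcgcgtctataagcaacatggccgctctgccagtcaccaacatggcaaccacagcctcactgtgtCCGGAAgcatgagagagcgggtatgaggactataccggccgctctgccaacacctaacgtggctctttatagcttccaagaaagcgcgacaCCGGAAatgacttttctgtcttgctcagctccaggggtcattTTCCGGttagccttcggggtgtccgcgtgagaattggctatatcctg
In METTL14 the matches lay at bases 216 to 221, 236 to 241 and 247 to 252 of the window, the last across the start. In METTL3 they lay at bases 121 to 126, 212 to 217 and 254 to 259.

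Other RNA N6-adenine methyltransferases and their cofactor were split in direction. Of 5 such genes, none was lower or higher past the fold, beside 17% and 11.4% of all genes. A log2 ratio below 0 was found for 2 of them, beside 59.9% of all genes, and the list's median was 0.66. The members with the largest ratios in the deposited scale were TRMT112, the cofactor of METTL5, and PCIF1, which methylates the adenosine next to the mRNA cap. TRMT112 had 135 TPM in si-NC compared with 228 TPM in si-FTO, for a log2 ratio of 0.75. PCIF1 had 37.6 TPM in si-NC compared with 60.5 TPM in si-FTO, for a log2 ratio of 0.67. METTL4, which methylates U2 small nuclear RNA, also had a log2 ratio of 0.66, and with quantile normalization its ratio of 0.82 was the largest of the list. METTL5 and ZCCHC4, which methylate ribosomal RNA, were in the writers' direction, at -0.57 and -0.48. METTL4, METTL5 and ZCCHC4 were named after their values were seen. The 5 directions held under median-ratio scaling and quantile normalization, and a difference between this list and the writers was not tested.

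Of the erasers, FTO was past the fold and ALKBH5, named after its values were seen, was not. ALKBH5 had 128 TPM in si-NC compared with 67.5 TPM in si-FTO, for a log2 ratio of -0.91, lower than that of any writer. Of 11 readers, 2 were lower past the fold and none was higher, beside 17% and 11.4% of all genes, with a list median of -0.31, or -0.14 with median-ratio scaling. A log2 ratio below 0 was found for 10 of the 11, beside 59.9% of all genes. The count was 8 with median-ratio scaling, beside 52.6% of all genes, and 9 with quantile normalization, beside 51.4%. IGF2BP1, which stabilizes methylated mRNAs, had 99.4 TPM in si-NC compared with 10.4 TPM in si-FTO, for a log2 ratio of -3.13. Its paralog IGF2BP2 had 74.99 TPM in si-NC compared with 24.4 TPM in si-FTO, for a log2 ratio of -1.58.

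The exon junction complex is known to keep m6A away from splice junctions by packing the RNA. A list of this complex and its peripheral proteins had a median log2 ratio of -0.52, or -0.34 with median-ratio scaling. None of the 9 genes on the list was past the fold in the deposited scale, beside 17% of all genes lower and 11.4% higher. All 9 had a log2 ratio below 0, beside 59.9% of all genes. With either median-ratio scaling or quantile normalization 8 of 9 did, beside 52.6% and 51.4% of all genes. The largest ratios in the deposited scale were those of RNPS1 and RBM8A. RNPS1, a splicing activator, had 300.5 TPM in si-NC compared with 153 TPM in si-FTO, for a log2 ratio of -0.97 that reached -1.04 with quantile normalization and -1.001 without mitochondrially encoded genes. RBM8A, a core subunit, had 95.4 TPM in si-NC compared with 58.3 TPM in si-FTO, for a log2 ratio of -0.70.

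The S-adenosylmethionine cycle supplies the methyl donor that all writers use. Of its 10 genes, 9 were above the filter, of which 2 were higher and 1 was lower past the fold, beside 11.4% and 17% of all genes, and the median log2 ratio was 0.36. AHCYL1, related to the hydrolase that clears the by-product of methylation, had 67.9 TPM in si-NC compared with 197 TPM in si-FTO, for a log2 ratio of 1.52. MTRR, which reactivates methionine synthase, had 33.8 TPM in si-NC compared with 101 TPM in si-FTO, for a log2 ratio of 1.54. MTR, methionine synthase itself, differed in the other direction, with 32.4 TPM in si-NC compared with 13.6 TPM in si-FTO and a log2 ratio of -1.19.

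**Figure D5:**
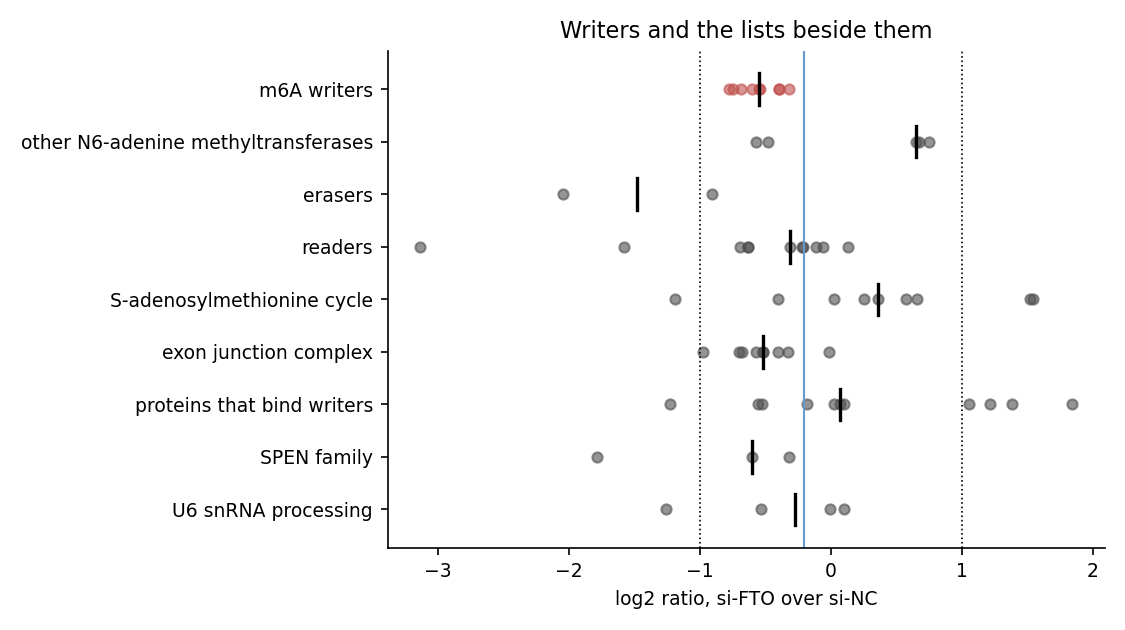
Log2 ratios of the members above the filter of the writers (red) and of 8 lists beside them (grey), with each list's median as a black bar, the median of all genes as a blue line and dotted lines at a log2 ratio of 1 in either direction. The writers span -0.77 to -0.32 with a median of -0.54, and the readers reach -3.13.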

How the data were processed

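Total RNA of 6 AGS libraries, 3 si-NC and 3 si-FTO, was sequenced by the authors from a stranded kit. The methods name Bowtie, RSEM and hg19, whereas the submitters' processing notes list HISAT2 and hg19. The deposited table holds TPM as 2 columns of group means, the authors' means, in which 0.0001 stands for 0. It also holds the authors' fold changes, p-values and q-values, which were not used, nor was the list of differentially expressed genes. Depth per library is unknown. Symbols were matched for 55726 of 58174 IDs. The log2 ratio used a pseudocount of 1 and the filter a mean TPM of at least 0.5. The planned limma fit needed values per library and was not run. Steps were tested on simulated data. Named were the writers, FTO, and list members past a log2 ratio of 1 or, where none was, the 2 with the largest ratio. Members and lists were chosen with earlier results of these data known. Annotation was GENCODE v44 lifted to GRCh37, the hg19 assembly. Python 3.11.15, numpy 2.4.6 and pandas 2.3.3 were used. Alternatives changed the pseudocount, filter, scaling, composition and fold. A result among the markers is not reported here.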

Additional observations from a re-analysis of the deposited data

How the results depend on the processing

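The writers' median log2 ratio lay between -0.60 and -0.38 under 8 alternatives (pseudocounts, filters, scalings and composition), and all 9 stayed below 0 in each. Pseudocounts and filters cannot change the sign of a ratio, so only the scaling and composition settings could have turned one. No writer passed a log2 ratio of 1. At a log2 ratio of 0.5, a fold that counts more genes by construction, 6 were lower. With the same fold 3 were lower under median-ratio scaling and 4 under quantile normalization, 2 combinations chosen after seeing the data. The summed writer level in si-FTO ran from 67.4% to 77.7% of si-NC across the scaling and composition settings. Those settings cannot change the order of levels within a group, so they do not test that order. Of all genes, 3492 (17.0%) were lower past the fold, compared with 5348 (26.1%) without a pseudocount and 2254 (17.4%) of the fewer genes at a mean of at least 5 TPM. No paired analysis was possible because the levels are given as 1 mean per group, and leaving out each replicate could not be run for the same reason. Depth and replicate spread limit every value and are not shown by the means.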

Other observations

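Of 11 proteins described to bind or recruit writers, 4 were higher and 1 was lower past the fold, compared with 11.4% and 17% of all genes. The list median was 0.07, or 0.25 with median-ratio scaling. SMAD2, a signal transducer of TGF-beta that binds the complex, had 11.4 TPM in si-NC compared with 43.6 TPM in si-FTO, for a log2 ratio of 1.84. Its partner SMAD3 had 16.8 TPM in si-NC compared with 45.4 TPM in si-FTO, for a log2 ratio of 1.39. EIF3H, an initiation factor subunit that METTL3 contacts, had 127 TPM in si-NC compared with 296 TPM in si-FTO, for a log2 ratio of 1.22. SETD1B, a histone H3 lysine 4 methyltransferase, had 13.4 TPM in si-NC compared with 28.9 TPM in si-FTO, for a log2 ratio of 1.06. NKAP, a nuclear protein, was counted in this list although it is described to bind m6A itself in primary microRNAs. It had 16.7 TPM in si-NC compared with 6.55 TPM in si-FTO, for a log2 ratio of -1.23.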
